A study of Mus musculus with 29 samples.

Results

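Cytochrome P450 genes that act in the intestinal epithelium were followed together with Por, the gene of the enzyme that supplies P450 enzymes with electrons. The set was chosen by gene symbol and holds Cyp3a11, Cyp3a13, Cyp3a25, Cyp2c29, Cyp2c55, Cyp2c65, Cyp2c66, Cyp2b10, Cyp4b1 and Por, which are 10 of the 47357 genes counted in all 29 libraries. It was picked because Cyp3a11, Cyp2c29 and Por differed between genotypes in these data, so genotype differences of the 10 genes are given as a description, without p values. The study measured RNA by strand-specific, poly(A)-selected sequencing in C57BL/6 mice and in organoids grown from mouse intestine, under a title that concerns the repair of ribonucleotides in DNA and intestinal tumors.

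Crypt libraries came from the intestinal epithelium of mice aged 52 weeks, 4 of genotype H2B flox/flox and 4 of genotype H2BdIEC. Tissue libraries came from 4 H2B/p53dIEC mice, each of which gave 1 tumor and 1 sample of adjacent normal tissue, and from 4 H2B/p53flox/flox mice, whose tissue carries the same adjacent normal label and served as the control. Organoid libraries were 3 of H2BdIEC, 3 of H2B/p53dIEC and 3 controls. The labels of the organoid controls differ: they are titled WT, carry the genotype H2B/p53flox/flox, and are H2Bfl/fl in the design text, so whether floxed p53 alleles were present in them is not settled. The labels do not spell out H2B, do not name the driver of the deletion, do not give the age of the tissue mice, and do not say which stretch of the intestine was taken. The 3 organoid libraries of a genotype are not tied to separate mice, and spread between them may be technical.

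Cytochrome P450 enzymes are heme proteins of the endoplasmic reticulum that insert oxygen into fat-soluble molecules, among them drugs, steroids, bile acids and fatty acids. Each catalytic cycle needs electrons from NADPH, which cytochrome P450 oxidoreductase, the product of Por, passes on to all microsomal P450 enzymes. In the small intestine these enzymes sit mainly in mature enterocytes, meet compounds from food before the liver does, and are induced by ligand-activated nuclear receptors such as the pregnane X receptor (Nr1i2) and the constitutive androstane receptor (Nr1i3).

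The 10 genes lie on 4 chromosomes of the mouse genome (GRCm38, GENCODE M21). Chromosome 19 carries the Cyp2c genes within 1 cluster, with Cyp2c55 at chr19:39007019-39042693, Cyp2c65 at chr19:39061015-39093944, Cyp2c66 at chr19:39113898-39187072 and Cyp2c29 at chr19:39269405-39330713. On chromosome 5 lie Cyp3a11 (chr5:145854426-145879964), Cyp3a25 (chr5:145977194-146009618), Cyp3a13 (chr5:137892932-137921619) and Por (chr5:135670033-135735326). Cyp2b10 lies at chr7:25897620-25926624 and Cyp4b1 at chr4:115624725-115647723. Some of these genes have near copies, so part of their reads could have been assigned to a neighbour. Of all 50-base windows of the longest transcript of each gene, 26.8% of those of Cyp3a25 recurred exactly in another gene, most often Cyp3a59. The share was 20.6% for Cyp2c65 and 20.4% for Cyp2c66, each most often shared with the other. It was 10.3% for Cyp4b1, 9.69% for Cyp2b10, 1.30% for Cyp2c29, 0.514% for Cyp2c55 and 0% for Cyp3a11, Cyp3a13 and Por. Por overlaps 2 gene models on the opposite strand, and the sources used here do not say whether counting used strand.

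Sequence upstream of the start sites is shown for Cyp3a11, Cyp2c29 and Por, which guided the choice of the set, for Cyp3a25, which like Cyp3a11 holds a pair of half-sites, and for the near copies Cyp2c65 and Cyp2c66, as listed by RefSeq on GRCm38.p6. All 10 genes matched an entry, with 250 bases before the start, and bases that GENCODE M21 places in an exon were left off. The RefSeq starts of Cyp3a11, Cyp2c29, Cyp2b10, Cyp4b1 and Por lie inside the GENCODE bounds of these genes. Positions are counted from the RefSeq start. In Cyp3a11 and Cyp3a25 the capitals mark a pair of AGNTCA-type half-sites, the letters that nuclear receptor dimers bind, and in Cyp2c65 and Cyp2c66 they mark the 13 bases at which the aligned sequences differ.
Cyp3a11, chr5:145879965-145880104, minus strand: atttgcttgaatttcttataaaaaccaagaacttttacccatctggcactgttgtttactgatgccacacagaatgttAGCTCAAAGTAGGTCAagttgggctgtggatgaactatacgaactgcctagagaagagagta
Cyp3a25, chr5:146009619-146009868, minus strand: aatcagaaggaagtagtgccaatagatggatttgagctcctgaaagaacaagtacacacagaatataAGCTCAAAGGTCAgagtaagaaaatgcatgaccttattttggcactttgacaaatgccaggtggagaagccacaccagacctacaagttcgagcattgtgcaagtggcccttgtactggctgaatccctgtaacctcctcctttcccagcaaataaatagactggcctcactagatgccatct
Cyp2c29, chr19:39286835-39287073, plus strand: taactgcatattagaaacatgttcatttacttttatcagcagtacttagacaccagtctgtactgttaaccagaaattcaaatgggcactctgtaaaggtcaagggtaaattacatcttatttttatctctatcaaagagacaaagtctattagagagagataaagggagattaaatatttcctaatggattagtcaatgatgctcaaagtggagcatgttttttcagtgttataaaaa
Cyp2c65, chr19:39060756-39061005, plus strand: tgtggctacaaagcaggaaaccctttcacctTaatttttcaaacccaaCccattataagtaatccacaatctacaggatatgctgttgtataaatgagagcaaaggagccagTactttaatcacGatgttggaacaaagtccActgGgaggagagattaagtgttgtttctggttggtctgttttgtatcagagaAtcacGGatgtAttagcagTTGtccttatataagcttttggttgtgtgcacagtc
Cyp2c66, chr19:39113648-39113897, plus strand: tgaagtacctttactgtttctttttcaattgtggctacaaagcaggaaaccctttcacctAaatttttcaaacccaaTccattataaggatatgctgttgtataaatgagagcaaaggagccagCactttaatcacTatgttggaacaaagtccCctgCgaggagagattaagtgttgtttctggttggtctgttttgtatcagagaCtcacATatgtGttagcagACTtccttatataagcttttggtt
Por, chr5:135688895-135689035, plus strand: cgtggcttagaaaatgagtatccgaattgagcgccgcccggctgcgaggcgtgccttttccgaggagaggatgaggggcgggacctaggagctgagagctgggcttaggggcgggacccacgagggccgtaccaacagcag
The half-sites of Cyp3a11 lie at positions -172 to -157 from the start and follow AGNTCANNNNAGNTCA, a direct repeat with a spacer of 4 bases that 0.111% of 27025 mouse promoters of this length hold on either strand. Those of Cyp3a25 lie at -183 to -171 and follow AGNTCANAGNTCA, a direct repeat with a spacer of 1 base found in 0.167% of promoters. Both matches include the single half-site AGGTCA, which 13.8% of promoters hold. A further AGGTCA lies at -155 to -150 in Cyp3a25, on the other strand, and 1 at -154 to -149 in Cyp2c29. The patterns AGNTCANNNAGNTCA, held by 0.0555% of promoters, and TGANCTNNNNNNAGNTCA, held by 0.0370%, matched none of the 10 windows. TATAAA, held by 13.0% of promoters, matched Cyp3a11, Cyp2c29, Cyp2c55, Cyp2c65 and Cyp2c66. It lay near the start in Cyp2c29 (-19 to -14) and Cyp2c55 (-29 to -24). In Cyp3a11 (-234 to -229), Cyp2c65 (-162 to -157) and Cyp2c66 (-150 to -145) it lay farther upstream. The windows of Cyp2c65 and Cyp2c66 were 94.1% identical over 221 aligned bases, with 17 bases present in Cyp2c65 alone. Over all 250 bases, including those not printed, the Por window had a GC content of 65.6%, against 32.8% in Cyp2c29 to 52.8% in Cyp2b10 among the P450 genes. These letters describe the windows and say nothing of which factor was bound.

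Gene counts per library ranged from 15545059 to 25913155 in crypts, from 5774771 to 21386586 in organoids and from 21884287 to 41504298 in tissue, apart from tissue control 1320 with 401365. Values below are read counts relative to library size (CPM, with TMM scaling within each set of crypt, tissue or organoid libraries), unless another scale is named. Rnaseh2b encodes a subunit of the enzyme that starts ribonucleotide repair. It lay at 2.13 to 2.71 CPM in H2BdIEC crypts against 6.87 to 14.4 in their controls. In tissue and organoids, too, its values in the H2BdIEC and H2B/p53dIEC groups did not overlap those of controls. Trp53 lay at 9.96 to 11.7 CPM in H2B/p53dIEC organoids against 78.3 to 110.2 in H2BdIEC organoids. Adjacent tissue of mouse 1323 stood apart from the other tissue libraries: a list of 5 genes that mark ileum summed to 473 CPM there, against 10096 to 13274 in the other adjacent samples and 9928 to 16233 in controls. A list of 6 genes of the proximal small intestine summed to 1572 CPM in that library, against 104 to 188 in the others of adjacent and control tissue. Several tissue results are therefore also given without it. In all these bulk samples, fewer cells of a type and less RNA per cell cannot be told apart.

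The make-up of the P450 pool differed between materials. Levels between genes are compared per kilobase of exon (CPM per kb). Cyp3a13, a Cyp3a enzyme typical of gut, led the list in both crypt groups and in control, adjacent and tumor tissue, with 200.4 ± 43.0 CPM per kb (SD, n = 4) in control crypts. In organoids Cyp2c55, an arachidonic acid oxidase gene of the large bowel and other tissues, led instead with 555 ± 26.8 CPM per kb (SD, n = 3) in controls, followed by Cyp2c66 and Cyp2c65. The 3 Cyp3a genes took 62.0% to 66.2% of the summed P450 level in crypts and 5.48% to 12.1% in organoids. The 4 Cyp2c genes took 16.8% to 21.7% in crypts and 77.3% to 91.7% in organoids. Adjacent tissue varied most, with a Cyp3a share from 35.7% to 78.2%.

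**Figure D1:**
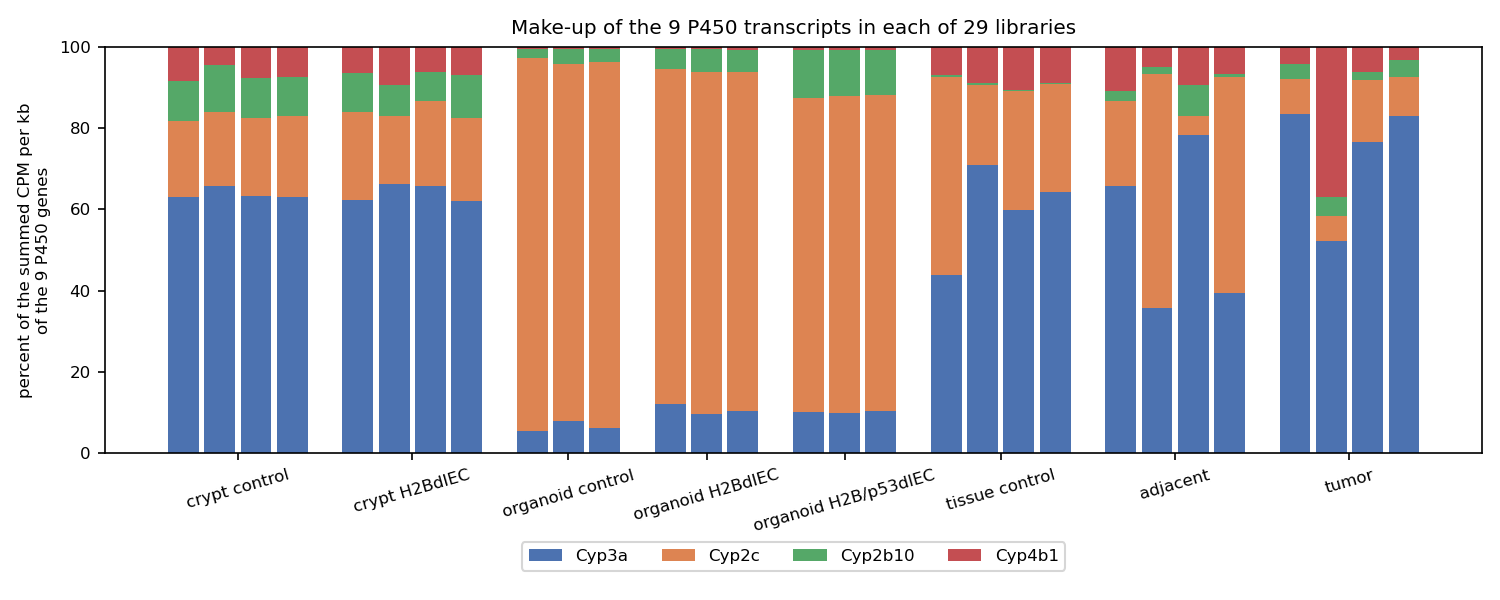
Shares of the 3 Cyp3a genes, the 4 Cyp2c genes, Cyp2b10 and Cyp4b1 in the summed CPM per kilobase of the 9 P450 genes (percent, vertical axis), with 1 bar per library and libraries ordered by group along the horizontal axis. Cyp3a genes fill 62.0% to 66.2% of the bars of crypts, and Cyp2c genes 77.3% to 91.7% of those of organoids.

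Por did not follow the size of this pool in every group. The summed P450 level was 13.9 to 16.4 times that of Por per kilobase in control crypts and control organoids. The ratio was 19.7 to 33.7 in H2BdIEC organoids, 19.6 to 22.7 in H2B/p53dIEC organoids and 15.6 to 27.9 in control tissue. It was 15.1 to 17.6 in H2BdIEC crypts and 6.75 to 17.2 in adjacent tissue. In tumors it was 0.255 to 5.57, and Por ranked second there of the 10 genes by mean. On 1 scale fitted over all 29 libraries, Por averaged 599 ± 351 CPM (SD, n = 4) in adjacent tissue, 324 ± 56.0 in tumors, 299.8 ± 54.9 in H2BdIEC crypts, 261 ± 18.3 in control organoids, 213 ± 21.0 in H2BdIEC organoids, 212 ± 27.4 in control crypts, 206 ± 7.30 in H2B/p53dIEC organoids and 97.7 ± 15.7 in control tissue. Of the neighbours in that order, 2 pairs differed by more than the sum of their SDs: control against H2BdIEC organoids, and H2B/p53dIEC organoids against control tissue.

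Cyp3a11, the main drug-oxidizing Cyp3a gene of mouse liver and gut and a classic target of the pregnane X receptor, had another order on that scale. It averaged 1745 ± 2361 CPM (SD, n = 4) in adjacent tissue, 1034 ± 348 in H2BdIEC crypts, 572 ± 115 in control crypts, 356 ± 94.3 in H2BdIEC organoids, 285 ± 308 in tumors, 244 ± 16.9 in H2B/p53dIEC organoids, 241 ± 97.4 in control tissue and 81.7 ± 25.1 in control organoids. Neighbouring groups differed by less than the sum of their SDs except control crypts against H2BdIEC organoids and control tissue against control organoids. Cyp2c29, which encodes a P450 best known from liver, was an organoid gene among these samples. Its means were 237 ± 40.5 CPM in H2BdIEC organoids, 184 ± 4.64 in H2B/p53dIEC organoids, 72.3 ± 22.3 in control organoids, 27.3 ± 27.7 in H2BdIEC crypts and 5.53 ± 6.62 in control crypts. The tissue groups held 117 counts in all in adjacent tissue, 98 in tumors and 1 in controls.

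In crypts, H2BdIEC libraries had higher levels of all 10 genes on average. By edgeR's quasi-likelihood test with Benjamini-Hochberg adjustment over all genes, 4 of 10 passed an adjusted p of 0.05 (Cyp3a11, Cyp2c65, Cyp4b1 and Por), beside 10.03% of all genes tested. In 3 of 10 (Cyp3a11, Cyp4b1 and Por) the 2 genotypes did not overlap, beside 18.8% of all genes. Since the genes were picked on this contrast, the counts carry no weight of their own.

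Por measured 139, 184, 155 and 174 CPM in control crypts 1 to 4 and 223, 186, 231 and 287 CPM in H2BdIEC crypts 1 to 4. The lowest H2BdIEC library lay just above the highest control, and the log2 fold change was 0.51 ± 0.14 (SE). Cyp3a11 measured 353, 498.5, 382 and 529.8 CPM in controls and 827, 543, 666 and 1157 CPM in H2BdIEC. Again the gap between the groups was narrow, between control 4 and H2BdIEC 2, with a log2 fold change of 0.86 ± 0.23 (SE). The other Cyp3a genes overlapped between genotypes, with log2 fold changes of 0.57 ± 0.19 for Cyp3a13 and 0.47 ± 0.19 for Cyp3a25.

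Cyp2c29 measured 0.982, 1.55, 2.69 and 11.9 CPM in control crypts and 29.7, 5.99, 1.48 and 47.1 CPM in H2BdIEC crypts. It was high in H2BdIEC 1 and 4 and within the control range in H2BdIEC 2 and 3, so the groups overlapped and the log2 fold change of 2.33 ± 1.22 (SE) had a wide error. Cyp2c65 and Cyp2c66, near copies of each other that encode fatty acid oxidizing enzymes of the gut, had log2 fold changes of 0.78 ± 0.20 and 0.73 ± 0.38. Cyp2c55 had 0.25 ± 0.22 and Cyp2b10, the best known target of the constitutive androstane receptor, 0.40 ± 0.29. Cyp4b1, which encodes an oxidase of fatty acids and furan-containing compounds, measured 91.7, 73.6, 93.3 and 104 CPM in controls against 130.0, 148, 122 and 199 CPM in H2BdIEC (log2 fold change 0.73 ± 0.16, SE). H2BdIEC library 4 was the highest of the 8 crypt libraries for all 10 genes, and library 2 was the lowest of its group for 8 of them.

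**Figure D2:**
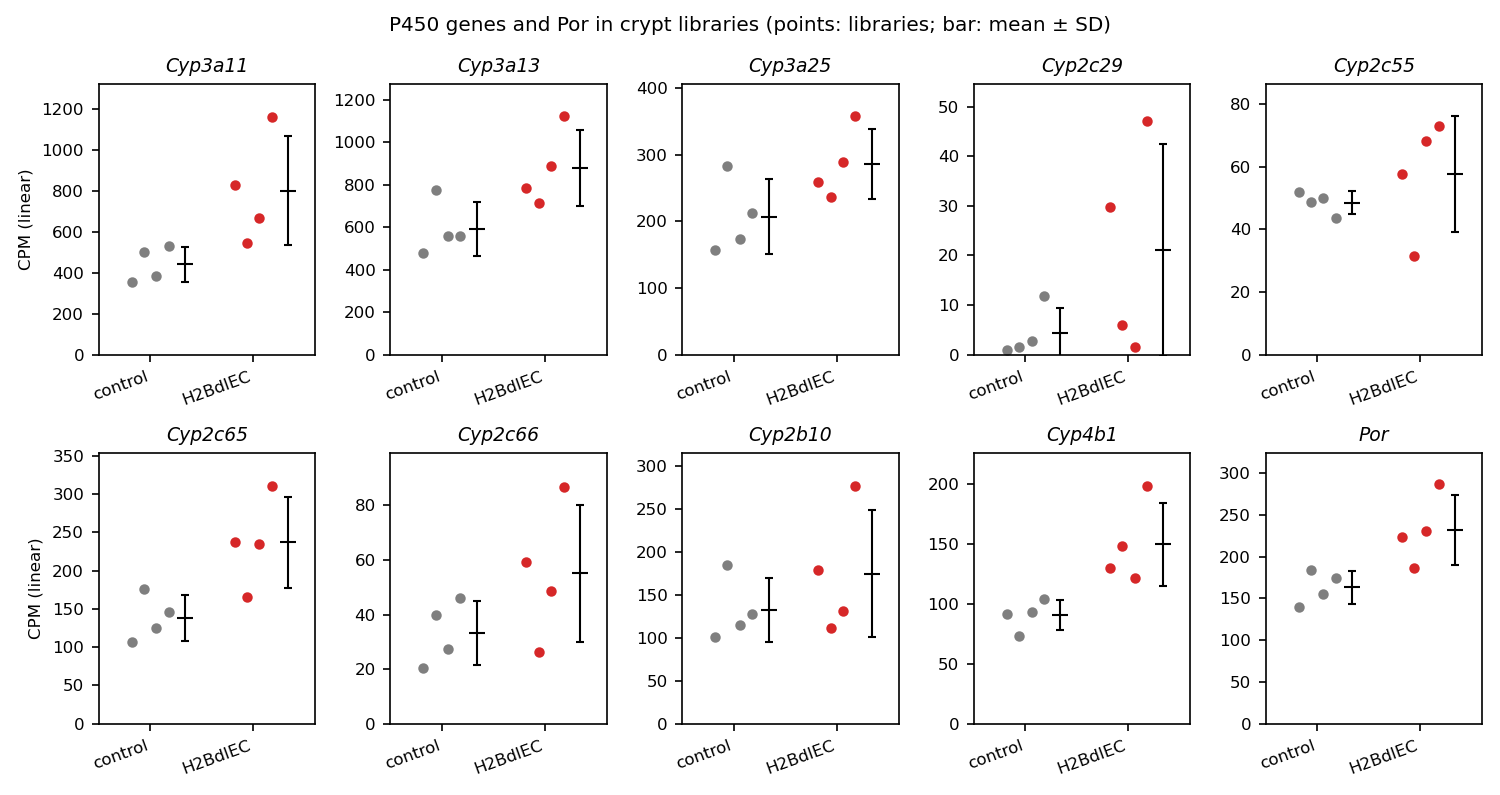
CPM (linear vertical axis) of each gene in the 4 control and 4 H2BdIEC crypt libraries, where points are libraries and bars show the mean ± SD (the bar of Cyp2c29 that would reach below 0 ends at 0). Groups do not overlap for Cyp3a11, Cyp4b1 and Por, and the Cyp2c29 points of H2BdIEC run from 1.48 to 47.1.

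The calls in crypts depended on single libraries. By edgeR, 0 of the 10 genes passed when control 1, control 3 or H2BdIEC 4 was left out, with 5 at an unadjusted p under 0.05 each time. Only Cyp4b1 passed without H2BdIEC 1 or without H2BdIEC 3, and 2 genes passed without control 4. Leaving out control 2 gave 6 and leaving out H2BdIEC 2 gave 5. The log2 fold change of Cyp3a11 ranged from 0.63 to 1.01 over these removals. Other marker lists moved with genotype in the same libraries. The 6 genes of the proximal small intestine summed to 756 to 1694 CPM in controls and 2276 to 3298 CPM in H2BdIEC, with 3 of 6 passing higher. The 5 stem cell markers summed to 1020 to 1168 CPM in controls and 333 to 632 in H2BdIEC, with 4 of 5 passing lower, and 4 of 5 Paneth cell markers passed lower too. The 11 enterocyte markers summed to 23784 to 34142 CPM against 33345 to 44529, with 2 passing higher and 1 lower. Markers of acinar pancreas summed to 0 to 0.288 CPM in controls, where Prss2 was at 0, and to 5.97 to 305 CPM in H2BdIEC. The part of these cell types and regions in the P450 and Por values was not tested.

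Organoids of H2BdIEC held more Cyp3a11, Cyp2c29, Cyp2b10 and Cyp4b1 RNA than control organoids, and these were the 4 of 10 genes that passed by edgeR's quasi-likelihood test, beside 4.06% of all genes. The groups did not overlap for 6 genes, 5 higher and 1 lower, beside 22.0% of all genes. This contrast, too, stands behind the choice of genes.

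Cyp3a11 measured 78.3, 131 and 82.9 CPM in control organoids A to C and 595, 364 and 362 CPM in H2BdIEC organoids A to C, a log2 fold change of 2.17 ± 0.24 (SE). Every H2BdIEC library lay above every control, and library A, the one with 5774771 counts, stood above B and C. Cyp2c29 measured 62.2, 114 and 82.6 CPM in controls and 362, 268 and 248 CPM in H2BdIEC, with a log2 fold change of 1.76 ± 0.20. Cyp2b10 measured 56.3, 99.9 and 74.5 CPM against 211, 172 and 150.2 CPM, with a log2 fold change of 1.20 ± 0.18. Neither gene overlapped between these genotypes, whereas both did in crypts. The call of Cyp2b10 was lost without library A of H2BdIEC (log2 fold change 1.06).

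The other members moved less. Cyp4b1, the scarcest of the set in organoids, went from a mean of 12.9 to 20.5 CPM (log2 fold change 0.66 ± 0.11). Cyp2c55, the most abundant, had 0.34 ± 0.11, Cyp2c66 0.30 ± 0.14 and Cyp2c65 0.08 ± 0.13. Cyp3a13 and Cyp3a25 had 0.55 ± 0.27 and 0.59 ± 0.23, with the highest value of each in H2BdIEC library A. Por lay on the other side, at 290.5, 318 and 328 CPM in controls and 241, 269 and 272 CPM in H2BdIEC, a log2 fold change of -0.26 ± 0.07 that did not pass. All 3 H2BdIEC values of Por were below all controls. The enterocyte markers summed to between 2959 and 5688 CPM over all organoids, with 1 of 11 passing higher in H2BdIEC. Enteroendocrine markers summed to 1106 to 1236 CPM in H2BdIEC and 852 to 894 CPM in controls, with 3 of 5 passing higher. Of the Paneth cell markers 2 of 5 passed lower (1490 to 1632 against 1863 to 2140 CPM), and of the stem cell markers 1 passed higher and 2 lower (2573 to 2798 against 2291 to 2627 CPM). The part of these cell types in the result was not tested.

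**Figure D3:**
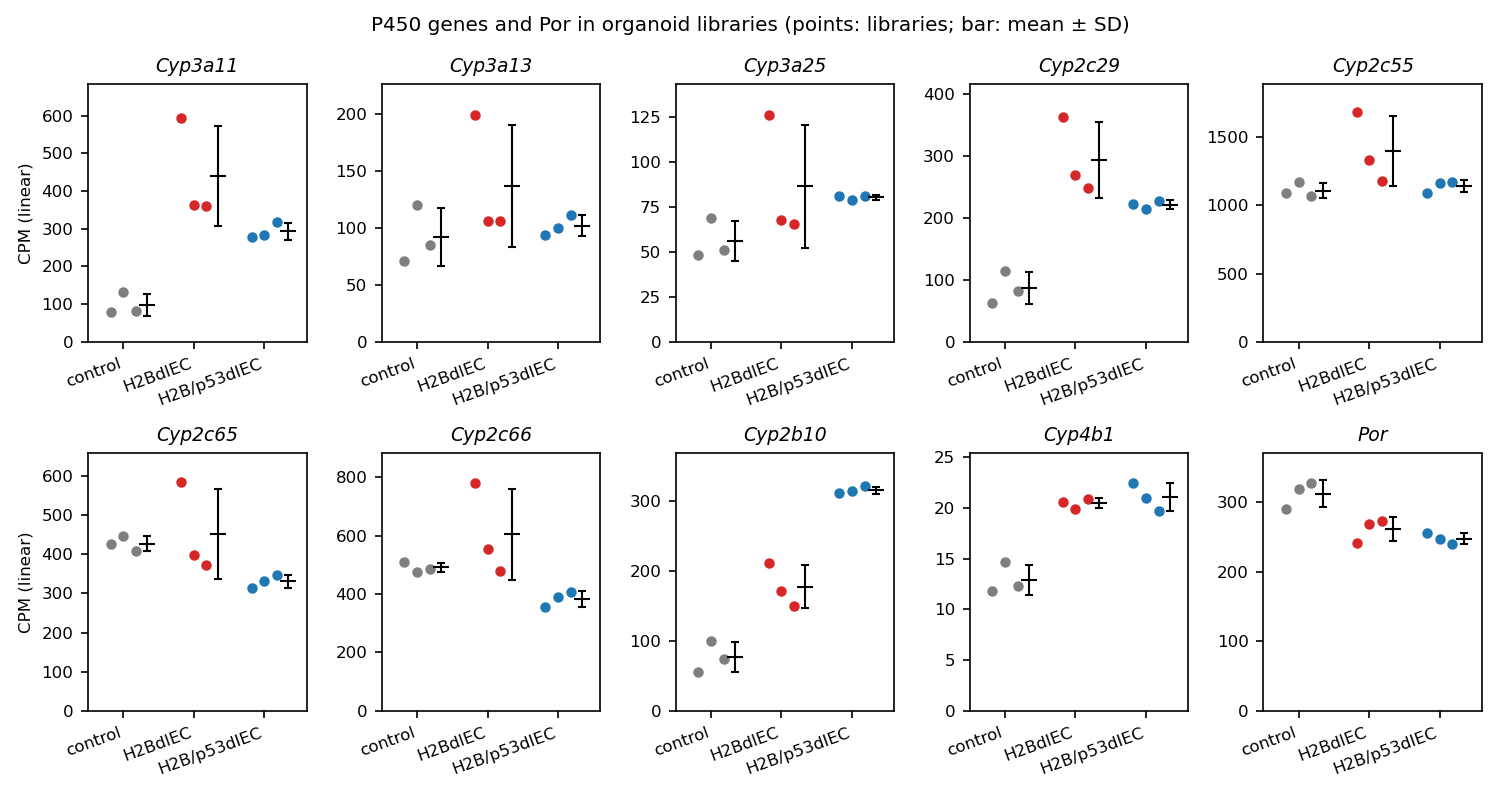
CPM (linear vertical axis) of each gene in 3 control, 3 H2BdIEC and 3 H2B/p53dIEC organoid libraries, where points are libraries and bars show the mean ± SD. Cyp3a11 runs from 78.3 to 131 CPM in controls and from 277 to 595 CPM in the other organoids, while Por is highest in controls.

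H2B/p53dIEC organoids were set against the same H2BdIEC libraries, so both organoid comparisons share them. Rnaseh2b also differed here, at 1.08 to 2.15 CPM in H2B/p53dIEC against 4.97 to 7.05 CPM in H2BdIEC organoids. The contrast is therefore not of Trp53 alone, and the part of the Rnaseh2b difference was not tested. Of the 10 genes, 3 passed by edgeR's quasi-likelihood test, beside 29.3% of all genes: Cyp2b10 was higher, and Cyp2c65 and Cyp2c66 were lower. Groups did not overlap for 6 of 10, beside 45.7% of all genes. Cyp2b10 measured 312, 314 and 322 CPM in H2B/p53dIEC organoids against 211, 172 and 150.2 CPM in H2BdIEC, a log2 fold change of 0.84 ± 0.17 (SE). It was the only member above its H2BdIEC range, and the highest mean of Cyp2b10 among the 8 groups was found here.

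Cyp2c66 measured 354, 389 and 408 CPM in H2B/p53dIEC organoids against 779, 552 and 479 CPM, a log2 fold change of -0.65 ± 0.14, and Cyp2c65 had -0.45 ± 0.13, a call that was lost when any 1 of the 3 H2B/p53dIEC libraries was left out. Cyp3a11 measured 277, 284 and 319 CPM, below each H2BdIEC library and above each control, with a log2 fold change of -0.58 ± 0.23 that did not pass. Cyp2c29 measured 222, 213 and 227 CPM (log2 fold change -0.40 ± 0.19), also between the other groups. Por had -0.08 ± 0.07, at 255, 247 and 240.1 CPM, which overlap the H2BdIEC values. Stem cell markers summed to 3299 to 3414 CPM in H2B/p53dIEC organoids against 2573 to 2798 CPM in H2BdIEC, with 3 of 5 passing higher. Enteroendocrine markers summed to 840 to 892 against 1106 to 1236 CPM, with 3 of 5 passing lower, and of the enterocyte markers 2 of 11 passed higher and 3 lower. Their part in these values was not tested. Organoids of these genotypes were not shown by the labels to come from the same mice or culture dates.

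In tissue outside tumors, Por was the only member that edgeR called between genotypes. Por guided the choice of the set, so its call carries no weight of its own. By DESeq2's Wald test Cyp2c66, Cyp2b10 and Cyp4b1 passed as well. Adjacent tissue of H2B/p53dIEC mice held 591, 1179, 316 and 423 CPM of Por in mice 1349, 1323, 1322 and 1319, and control tissue held 109, 94.1, 126 and 82.1 CPM in mice 1315, 1316, 1320 and 1321. All adjacent samples lay above all controls, of which the highest, 1320, rests on 47 counts. The log2 fold change was 2.63 ± 0.36 (SE), and 2.22 ± 0.27 with adjacent 1323 and control 1320 left out. Por was the 1 of 9 tested members that passed by edgeR's quasi-likelihood test, beside 1.07% of all genes, and that call was lost without control 1316 or without control 1321, where edgeR called 0 members and 5 had an unadjusted p under 0.05.

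Most of the P450 genes varied widely within the adjacent group. Cyp3a11 measured 304, 5657, 672 and 773 CPM in adjacent tissue and 385, 205, 262 and 158 CPM in controls. Its log2 fold change of 2.88 ± 1.26 became 1.22 ± 1.27 without adjacent 1323 and control 1320. Cyp2b10 measured 15.1, 547, 49.1 and 46.7 CPM against 4.48, 6.14, 2.68 and 1.25 CPM, and its groups did not overlap. The 2.68 CPM of control 1320 rest on 1 count. Its log2 fold change was 5.40 ± 1.43, or 3.23 ± 1.16 without those libraries. Groups also did not overlap for Cyp3a13, Cyp2c29, Cyp2c66 and Cyp4b1, which with Cyp2b10 and Por makes 6 of 10, beside 14.1% of all genes tested. Without adjacent 1323 and control 1320, the log2 fold change of Cyp3a13 went from 1.76 ± 0.84 to 0.83 ± 0.88. That of Cyp4b1 went from 1.63 ± 0.57 to 0.87 ± 0.48, and that of Cyp2c66 from 4.38 ± 1.40 to 3.61 ± 1.51. Cyp2c66 measured 13.0, 43.6, 17.2 and 5.20 CPM against 2.43, 0.172, 0 and 0.188 CPM. Cyp2c29 was too scarce to be tested, with 1 count over the 4 controls, and is not among the genes behind the 14.1%. Its adjacent library 1319 also held 1 count (0.0460 CPM, against 0.0429 in control 1316). Library size alone thus kept its groups from overlapping. Proximal markers in adjacent tissue were 110, 122 and 188 CPM in mice 1349, 1322 and 1319, against 104 to 149 in controls, and their part in the remaining differences was not tested.

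**Figure D4:**
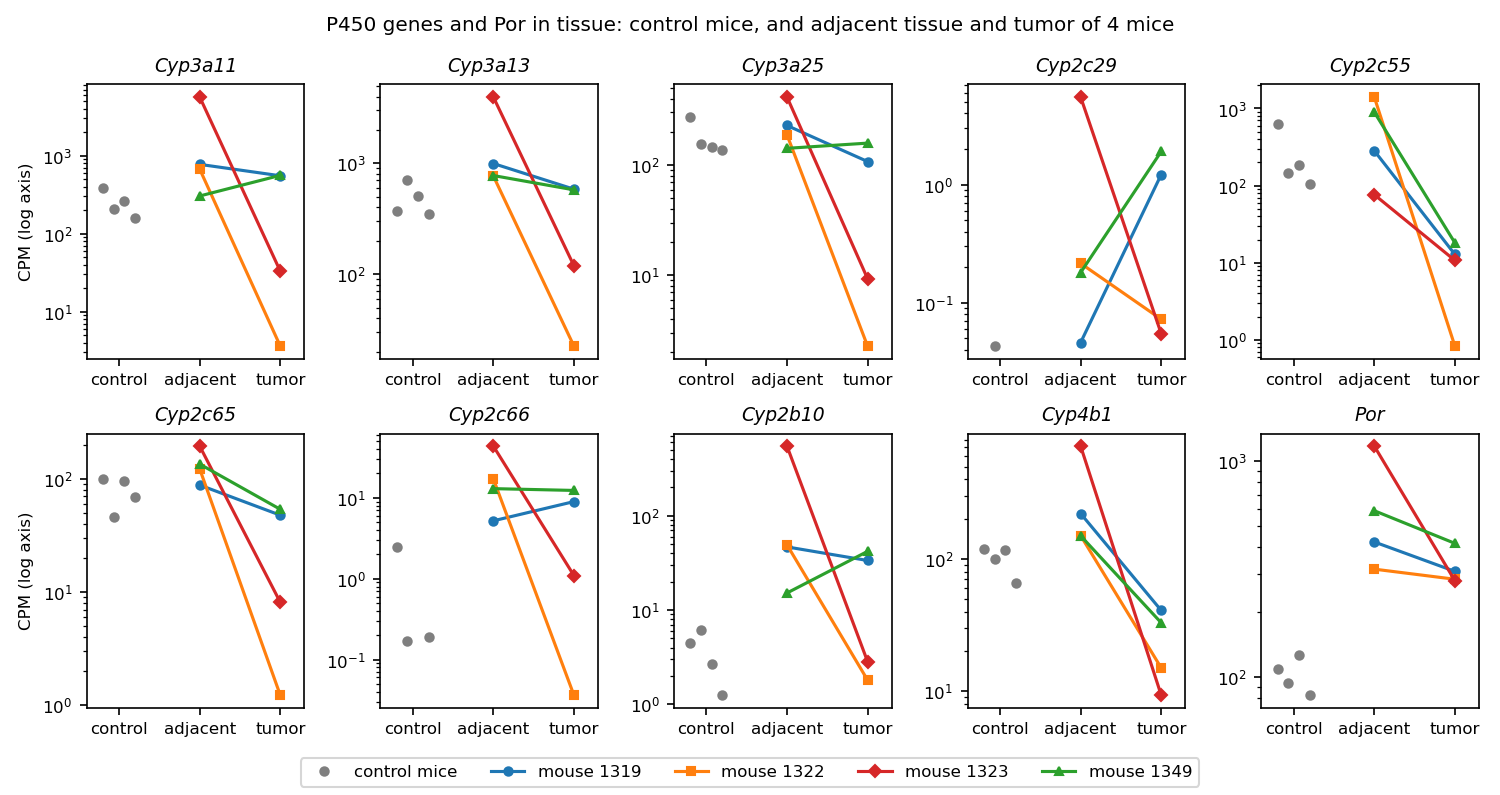
CPM on a log vertical axis for each gene in control, adjacent and tumor tissue, where each point is a library, colour and shape mark the mouse, and lines join adjacent tissue and tumor of a mouse. Libraries at 0 are not drawn (Cyp2c29 in 3 controls, Cyp2c66 in control 1320), Por lies between 316 and 1179 CPM in adjacent tissue against 82.1 to 126 in controls, and the P450 genes of tumors 1322 and 1323 lie below those of tumors 1319 and 1349.

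Tumors held less of 5 of the 9 tested members than adjacent tissue by edgeR's quasi-likelihood test, beside 24.0% of all genes lower and 46.9% changed in either direction. The adjacent libraries also stand in the genotype contrast that guided the choice of Cyp3a11, Cyp2c29 and Por, so no p is given for these here. Cyp2c55 fell most, from 898, 76.4, 1411 and 283 CPM in adjacent tissue of mice 1349, 1323, 1322 and 1319 to 18.2, 10.7, 0.832 and 12.8 CPM in their tumors (log2 fold change -5.97 ± 1.12, adjusted p = 0.00113). All tumors lay below all adjacent samples. Cyp4b1 fell from 149.8, 714, 150.4 and 221 CPM to 32.9, 9.34, 15.0 and 40.8 CPM (-3.65 ± 0.60, adjusted p = 0.000532), again with no overlap.

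Cyp3a13 and Cyp2c65 passed as well, with log2 fold changes of -2.32 ± 0.85 (adjusted p = 0.0408) and -2.28 ± 0.79 (adjusted p = 0.0327) by the same edgeR test. Tumor and adjacent tissue came from the same animals, and with mouse as a block 2 members passed, Cyp2c55 (adjusted p = 0.0341) and Cyp4b1 (adjusted p = 0.0236). In that blocked fit edgeR gave an adjusted p of 0.119 for Cyp3a13 and 0.0857 for Cyp2c65. That fit held only the tumor and adjacent libraries, without the control tissue. With those 2 groups and no block, again only Cyp2c55 and Cyp4b1 passed, so the block itself ended no call. Cyp2c55 and Cyp4b1 alone passed without mouse 1323, whether its adjacent library, its tumor or both were left out. Cyp2c65 was also lost without adjacent 1349. Cyp3a25 (-1.81 ± 0.91, adjusted p = 0.122), Cyp2c66 (-1.81 ± 1.14, adjusted p = 0.210) and Cyp2b10 (-3.04 ± 1.20, adjusted p = 0.0534) did not pass in edgeR's test. Without both libraries of mouse 1323 the log2 fold changes were -6.34 ± 1.24 for Cyp2c55, -2.55 ± 0.36 for Cyp4b1, -1.75 ± 0.90 for Cyp2c65, -1.10 ± 0.83 for Cyp3a13, -1.06 ± 0.95 for Cyp3a25, -0.73 ± 1.27 for Cyp2c66 and -0.52 ± 0.90 for Cyp2b10. Por, the other member counted among the 5, measured 417, 279.5, 284 and 309 CPM in tumors, a log2 fold change of -0.96 ± 0.34, or -0.81 ± 0.38 with the block and -0.40 ± 0.25 without mouse 1323. Its call was also lost without adjacent 1349, tumor 1322 or tumor 1319.

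The 4 mice differed in kind. In mice 1322 and 1323 all 10 genes were lower in the tumor than in adjacent tissue, in mouse 1319 8 of 10 and in mouse 1349 6 of 10. Cyp3a11 measured 559, 33.0, 3.62 and 552 CPM in the tumors of mice 1349, 1323, 1322 and 1319. The within-mouse log2 ratio of tumor to adjacent tissue was 0.88 in 1349 and -0.49 in 1319, against -7.42 in 1323 and -7.54 in 1322. Cyp2b10 was higher in the tumor of mouse 1349 (log2 ratio 1.47), and Cyp2c66 in that of mouse 1319 (0.79). Cyp3a13, Cyp2c55, Cyp2c65, Cyp4b1 and Por were lower in the tumor in 4 of 4 mice. Por had the narrowest range of these, with log2 ratios of -0.50, -2.08, -0.16 and -0.45.

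Markers of region and of mature epithelium moved with these values. The ileum list summed to 36.5 to 151 CPM in tumors, and 5 of 5 of its genes passed lower than in adjacent tissue. The proximal list summed to 1417 and 1146 CPM in tumors 1349 and 1319, the 2 with Cyp3a11 above 500 CPM, and to 140.0 and 199 CPM in tumors 1323 and 1322. Enterocyte markers summed to 17811 and 15014 CPM in tumors 1349 and 1319 and to 2776 and 964 CPM in 1323 and 1322, with 8 of 11 genes passing lower. All 5 goblet cell markers passed lower. All 7 markers of stomach and Brunner glands passed higher, at 118 to 2406 CPM against 0.874 to 1.75. Fibroblast markers reached 926 to 7873 CPM against 194 to 642. Stem cell markers summed to 960 to 1188 CPM against 129 to 317, with 4 of 5 passing higher, and smooth muscle markers to 239 to 604 CPM against 2243 to 3371, with 4 of 4 lower. The part of any of these in the P450 values was not tested.

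**Figure D5:**
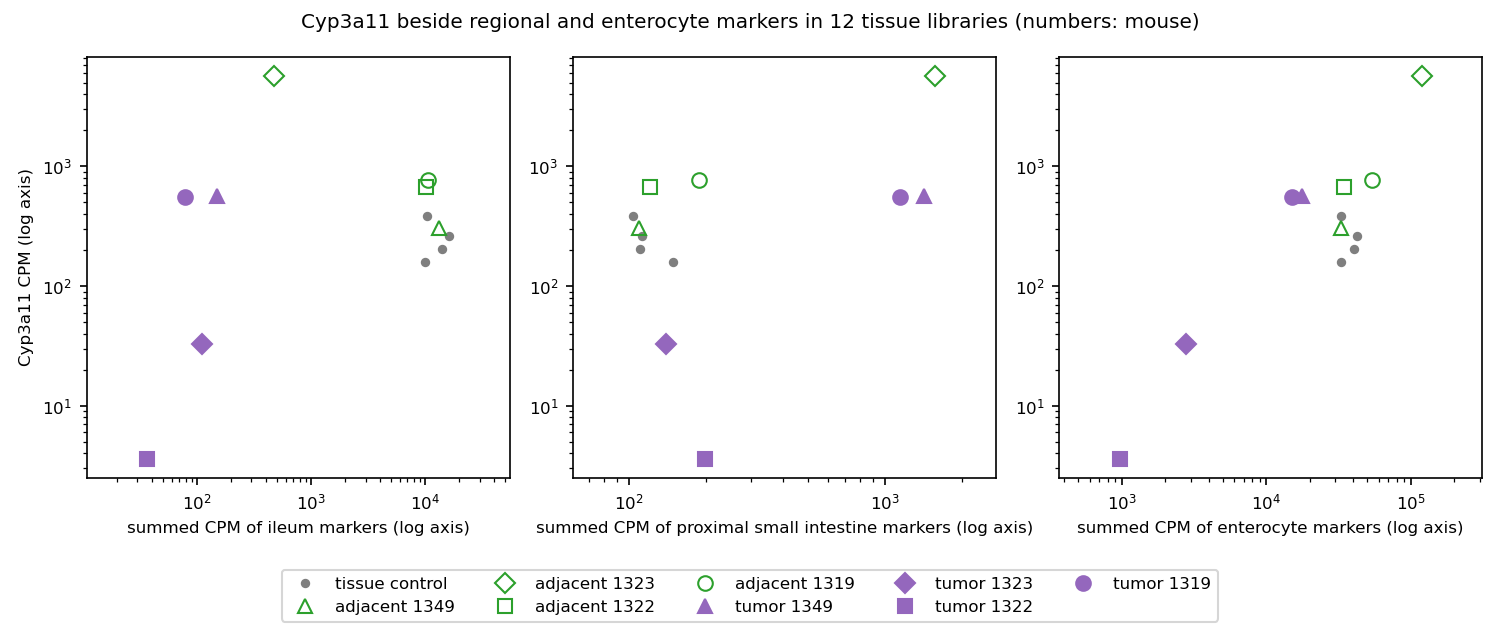
Cyp3a11 CPM (vertical log axis) against the summed CPM of ileum, proximal small intestine and enterocyte markers (horizontal log axes) in the 12 tissue libraries, with colour for the tissue group and shape for the mouse. Tumors 1349 and 1319 lie at 1417 and 1146 CPM of proximal markers and 559 and 552 CPM of Cyp3a11, while adjacent 1323 lies alone at 5657 CPM.

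Control organoids, set against control crypts in 1 fit over all 29 libraries, had a different P450 profile. By edgeR's quasi-likelihood test 7 of 10 members changed, beside 65.6% of all genes, so the count is near that of any genes. The controls also stand in the genotype contrasts that guided the choice of Cyp3a11, Cyp2c29 and Por, so no p is given for these here or for control tissue. The Cyp3a genes fell, with log2 fold changes of -2.81 ± 1.04 for Cyp3a11, -3.31 ± 0.74 for Cyp3a13 (adjusted p = 0.000413) and -2.51 ± 0.78 for Cyp3a25 (adjusted p = 0.00705). The call of Cyp3a11 was lost when control organoid A or C was left out. Cyp4b1 fell by 3.44 ± 0.49 on the log2 scale (edgeR, adjusted p = 1.52e-06). Of the Cyp2c genes, Cyp2c55 (3.88 ± 0.77, edgeR adjusted p = 0.000114), Cyp2c29 (3.72 ± 1.0) and Cyp2c66 (3.25 ± 0.83, edgeR adjusted p = 0.00145) rose. Cyp2c65 had a log2 fold change of 0.99 ± 0.60 and Cyp2b10 of -1.41 ± 0.92, and neither passed. Por had 0.30 ± 0.25.

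The near copies Cyp2c65 and Cyp2c66, with promoters that differ at few bases, therefore stood in different proportion in the 2 materials. Cyp2c66 measured 20.3 to 46.0 CPM beside 106 to 176 CPM of Cyp2c65 in control crypts, and 477 to 508 CPM beside 408 to 447 CPM in control organoids. Enterocyte markers were lower in control organoids (11 of 11), as were ileum markers (5 of 5), and 3 of 6 proximal markers were higher. Material, preparation and sequencing differed together between these sets and cannot be told apart.

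Control tissue against control crypts, which share the crypt libraries with the comparison above, gave 5 of 10 members changed by edgeR's quasi-likelihood test, beside 58.8% of all genes. Cyp2c66 (log2 fold change -5.47 ± 1.03, adjusted p = 8.65e-05), Cyp2b10 (-5.51 ± 1.09, adjusted p = 0.000143) and Por (-1.14 ± 0.24) were lower in tissue in edgeR's test. Cyp2c29 was lower as well, with 425 counts over the 4 crypt controls and 1 count over the 4 tissue controls. Of the 425, 283 came from control crypt 4 and 28, 43 and 71 from control crypts 1 to 3. The depth-scaled ratio was 504, with a 95% interval from 90.0 to 19965 that covers counting error only. Cyp2c55 was higher (2.05 ± 0.70, edgeR adjusted p = 0.0147), a call that was lost without control 1315, where it reached 629 CPM. The 3 Cyp3a genes, Cyp2c65 and Cyp4b1 did not pass. All 5 ileum markers were higher in control tissue and 4 of 6 proximal markers lower. Smooth muscle markers summed to 3417 to 5648 CPM in control tissue against 0.335 to 12.7 CPM in control crypts and fibroblast markers to 372 to 594 against 2.39 to 19.8 CPM, with 4 of 4 higher in each list. All 5 stem cell and all 5 Paneth cell markers were lower. The part of region and cell type in these values was not tested.

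Genes that act with the P450 enzymes were followed as lists. Of all genes, edgeR called 10.03% in H2BdIEC crypts, 4.06% in H2BdIEC organoids, 1.07% in adjacent tissue and 46.9% in tumors, where 24.0% passed lower. Among 13 nuclear receptors and partners, 2 passed higher and 1 lower in H2BdIEC crypts. Nr1i3, the constitutive androstane receptor, measured 81.1 ± 14.1 CPM against 42.6 ± 10.2 (SD, n = 4), and Nr0b2, a receptor that represses others, 1.74 ± 0.73 against 0.444 ± 0.062. Nr3c1, the glucocorticoid receptor, was lower at 196 against 251 CPM, a call that was lost in 7 of 8 fits without 1 library. Of these 13, edgeR called 0 in H2BdIEC organoids (4 at an unadjusted p under 0.05, 1 called by DESeq2) and 0 in adjacent tissue (2 and 2). In tumors 10 passed lower and 1 higher, among them Rxra, the shared dimer partner (62.5 ± 14.9 against 252 ± 16.5 CPM), Hnf4a, a master regulator of enterocyte genes (192 ± 78.2 against 963 ± 149), and the bile acid receptor Nr1h4 (19.4 ± 10.7 against 199 ± 79.8). In H2B/p53dIEC organoids Vdr, the vitamin D receptor (623 against 382 CPM on average), and Ahrr, the repressor of the aryl hydrocarbon receptor, were higher. In the same organoids 3 of the 13 were lower, among them Ahr, the aryl hydrocarbon receptor (23.8 ± 1.93 against 31.5 ± 3.96 CPM), and Nr1h4 (20.4 ± 1.60 against 29.3 ± 5.82), beside 29.3% of all genes called. The call of Ahr was lost without H2BdIEC B, H2B/p53dIEC 1 or H2B/p53dIEC 3, and that of Nr1h4 without H2B/p53dIEC 2.

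Besides Por, 6 electron donors and membrane partners were tested (cytochrome b5 genes, their reductases, Pgrmc1 and Pgrmc2), of which edgeR called 0 in H2BdIEC crypts (4 at an unadjusted p under 0.05, 2 called by DESeq2), 0 in H2BdIEC organoids (2 and 1) and 0 in adjacent tissue (2 and 1). In tumors Pgrmc1, a heme-binding partner of P450 enzymes, was lower (126 ± 42.7 against 351 ± 43.5 CPM), as was Cyb5a, while Cyb5r1 was higher. These make 50% of the list, beside 46.9% of all genes called. Of the heme synthesis and breakdown genes, 1 of 11 passed in crypts (Ppox, 24.0 ± 3.30 against 16.8 ± 1.54 CPM, lost without control 1, 3 or 4 or H2BdIEC 4), beside 10.03% of all genes. In tumors 4 of 12 passed higher and 0 lower, which is 33.3% beside 46.9% of all genes called. The heme breakdown genes Blvrb and Hmox1 led these.

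Among the 91 other P450 genes, 28 were measurable in crypts, and 5 passed higher and 1 lower in H2BdIEC, beside 10.03% of all genes called, with a median log2 fold change of 0.40 beside -0.0054 for all genes. With 1 library left out, 1 to 8 passed higher, the fewest without control 3 or H2BdIEC 4 and the most without control 2. The risen ones included Cyp4a10, a fatty acid hydroxylase (6.13 ± 3.77 against 1.13 ± 0.505 CPM), Cyp2d26 (313 ± 74.0 against 171 ± 33.3) and Cyp4f17, and Cyp39a1 was lower. Cyp4f17 and Cyp39a1 passed in all 8 fits without 1 library, Cyp4a10 in 6 and Cyp2d26 in 4. For comparison, the median of the 10 members was 0.65. In adjacent tissue 4 of 42 passed higher, Cyp4a10 among them again, beside Cyp2d9, Cyp2d34 and the retinoic acid hydroxylase Cyp26b1, against 1.07% of all genes. These calls were not stable: 1 to 3 passed without 1 adjacent library, and edgeR called 0 of 45 without any 1 of the 4 controls, with 8 to 11 at an unadjusted p under 0.05. In H2BdIEC organoids 4 of 42 passed higher, led by Cyp2c37, a Cyp2c gene of the same cluster on chromosome 19 (4.54 ± 1.76 against 0.698 ± 0.148 CPM), and 2 lower, beside 4.06% of all genes. With 1 library left out, 2 to 7 passed higher and 1 to 4 lower, and Cyp2c37 passed each time. In H2B/p53dIEC organoids Cyp1a1, the best known target of the aryl hydrocarbon receptor, measured 17.4 ± 1.64 against 1.80 ± 0.311 CPM, with 8 of 42 higher and 6 lower, which is 33.3% beside 29.3% of all genes. In tumors 17 of 42 passed lower and 7 higher, which is 57.1% beside 46.9% of all genes. In neither of these does the share called in either direction lie far from that of all genes. Beside the 17 of 42 that passed lower in tumors, 24.0% of all genes did.

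Later steps of the same metabolism were measured too. Of 20 other oxidation and hydrolysis genes, 5 passed higher in H2BdIEC crypts and 1 lower, beside 10.03% of all genes. With 1 library left out, 1 to 9 passed higher, the fewest without control 3 and the most without control 2. Ephx1, the microsomal epoxide hydrolase that acts on P450 products, led with 64.5 ± 18.2 against 10.8 ± 4.18 CPM (SD, n = 4), a log2 fold change of 2.59 ± 0.30, and passed in each of those 8 fits. In H2BdIEC organoids edgeR called 0 of 20 (7 at an unadjusted p under 0.05, 0 called by DESeq2). In tumors 14 of the 20 passed lower (9 to 14 with 1 library left out), beside 24.0% of all genes lower. Of 13 transporters, the export pump gene Abcc4 was higher in H2BdIEC crypts (8.13 ± 1.33 against 4.86 ± 1.08 CPM), H2BdIEC organoids (29.3 ± 2.88 against 16.7 ± 1.66) and adjacent tissue (13.4 ± 2.96 against 6.36 ± 0.753). The call of Abcc4 in crypts was lost in all 8 fits without 1 library and that in adjacent tissue in 5 of 8, while that in organoids held in 6 of 6. It was 1 of the 2 transporters that were higher in tumors than in adjacent tissue, where 9 were lower, beside 24.0% of all genes lower. Of the conjugation genes, 1 of 17 passed higher and 1 lower in crypts, beside 10.03% of all genes called. In tumors 10 of 16 passed lower (6 to 11 with 1 library left out), beside 24.0% of all genes lower.

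Members varied together to unequal degrees. Over the 29 libraries, with log2 CPM centred on the mean of each set, the 3 Cyp3a genes correlated with each other at r = 0.91 to 0.95, and Cyp2c65 with Cyp3a25 at 0.95. Cyp2c29 correlated most with Cyp2b10 (0.71), and Por with Cyp2c66 (0.75) and Cyp2b10 (0.72) but only 0.34 with Cyp3a11. These values describe points that share genotype groups, depth and tissue make-up. Among 9263 other genes, those with the pattern most like Cyp3a11 were Apoa1 (0.93), Arg2 (0.92), Apoc3 (0.92), G6pc (0.91) and Slc2a5 (0.91). Those most like Cyp2c29 were Dhrs1 (0.81), Cyp2j6 (0.81), Ces2g (0.80), Sh3d21 (0.79) and Adh1 (0.79). Those most like Por were Grhpr (0.90), Sod1 (0.90), Pgk1 (0.89), Arl14 (0.88) and Slc16a6 (0.86).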

How the data were processed

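Each library was prepared from 500 ng of RNA with a stranded, poly(A)-selecting TruSeq kit, per the labels' protocols. The submitters' processing notes name TopHat2 2.0.14, HTSeq, Trimmomatic 0.36 and cutadapt (1.5, 1.9) and build GRCm38. HTSeq's version, strand setting and annotation, and the part each tool played, are not given in the sources used here. The unit of all files is whole-number counts of reads for each Ensembl identifier, deposited without scaling. Summary lines at the end of crypt files were dropped. GENCODE M21 (GRCm38) gave names and positions and matched 47310 of 47729 crypt gene identifiers.

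Crypt, tissue and organoid counts were each fitted with edgeR 4.0.16 in R 4.3.3 (filterByExpr, TMM, robust quasi-likelihood F test, Benjamini-Hochberg over all genes tested, adjusted p under 0.05 called), and comparisons between materials in 1 fit of 8 groups. Values after ± are SD for CPM and SE for log2 fold changes. The prior count for log2 CPM was 2, and likeness used protein-coding genes with a mean log2 CPM of at least 3. P values measure the spread between these libraries. The depth and the 3 or 4 libraries per group limit precision, most of all in tissue control 1320. No 2 libraries of a group were identical or agreed within sampling noise (chi-square per degree of freedom of at least 1.93). Tumor and adjacent libraries with the same number came from the same mouse, and their deviations from the group means correlated at 0.16, -0.16, 0.12 and 0.064. Alternatives were the Wald test and the size factors of DESeq2 1.42.0, scaling by upper quartile, keeping genes of low count, fitting only the 2 groups compared, replicate blocks and fits without 1 library at a time. Leaving out both libraries of mouse 1323, or control 1320 with adjacent 1323, was chosen after seeing the data. The fits were tested on simulated data: in crypts they recovered 91.8% of genes changed by 1.5 on the log2 scale and in tumor against adjacent tissue 59.8%. The 10 genes, the pathway lists and the marker lists were chosen with earlier results of these data known. Named genes were the members, Rnaseh2b and Trp53, up to 4 genes of a described list by smallest p, and 5 genes by likeness. Plots used matplotlib 3.10.9 (Python 3.11.15).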

Additional observations from a re-analysis of the deposited data

Results flagged for a closer look

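A library was marked where the highest or lowest of 4 values lay far from the others. The gap over the whole range had to lie above Dixon's 95% critical value. Chance gives that for about 1 in 20 groups of independent, normally distributed values. Of 50 groups of 4 tested, 10 were marked. The genes varied together and 1 library gave 5 of the marks, so their number cannot be set against that rate. Adjacent tissue of mouse 1323 was far above the other adjacent samples for 5 genes: Cyp3a11 at 5657 CPM (next highest 773), Cyp3a13 at 3967 (996), Cyp2b10 at 547 (49.1), Cyp4b1 at 714 (221) and Cyp2c29 at 5.51 (0.215). The same library had the lowest ileum marker sum and the highest proximal marker sum of the adjacent samples. Control tissue of mouse 1315 was far above the other controls for Cyp2c55 at 629 CPM (185), Cyp3a25 at 270.3 (154) and Cyp2c66 at 2.43 (0.188). Cyp2c29 stood at 11.9 CPM in control crypt 4 (2.69), and at 0.0429 CPM, a single count, in control tissue of mouse 1316, with 0 in the other 3 controls. Por was marked because its direction differed between materials: H2BdIEC organoids lay below their controls (log2 fold change -0.26) and H2BdIEC crypts above theirs (0.51), with every library on that side in both. The difference between the materials was not tested.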

How the results depend on the processing

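Of 861 fold changes of members under alternatives, 768 kept their direction and their side of the threshold, 56 lost a call, 33 gained one and 4 changed direction. Those 4 were all near 0: Cyp3a25 in adjacent against control tissue (-0.0078 with control 1320 and adjacent 1323 left out), Cyp2c65 in H2BdIEC organoids (-0.15 without H2BdIEC A, and up to 0.20 without other libraries), and in H2B/p53dIEC against H2BdIEC organoids Cyp3a25 (0.27 without H2BdIEC A, and down to -0.24) and Cyp4b1 (-0.0073 without H2B/p53dIEC 1, and up to 0.086). The cause was not tested. Members called in adjacent tissue went from 1 to 4 with DESeq2's Wald test. Without a low-count filter, calls went from 5 to 2 in tumors, from 4 to 9 in H2BdIEC organoids and from 3 to 7 in H2B/p53dIEC organoids. With only the compared groups in the fit, they went to 2 in tumors, 10 in control organoids and 9 in control tissue against crypts. Without mouse 1323, 2 were called in tumors. In tumors the block for mouse was fitted to the tumor and adjacent groups only and left the same 2 calls, Cyp2c55 and Cyp4b1. The calls of Cyp3a13, Cyp2c65 and Por were already lost with the control tissue left out, and the block ended none. Organoid letters A to C pair no known origin (deviations of same-lettered libraries correlated at 0.00090, -0.18 and 0.10), and a block for the letter left 0 of 4 calls in edgeR, with 6 members at an unadjusted p under 0.05. Leaving out 1 library at a time gave 0 to 6 called in crypts, 0 to 1 in adjacent tissue, 2 to 5 in tumors, 4 to 6 in H2BdIEC organoids, 2 to 4 in H2B/p53dIEC organoids, 6 to 7 in control organoids and 4 to 5 in control tissue against crypts. Of 1246 counts for pathway lists, 219 moved by more than 1.5 times. Low counts limit Cyp2c29 and Cyp2c66 in tissue most, and not only in control 1320 with its 401365 counts. Controls 1315, 1316 and 1321, with 26853485 to 41504298 counts, held 0, 1 and 0 of Cyp2c29 and 95, 4 and 6 of Cyp2c66.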
